A study of Mus musculus with 34 samples.

Results

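The primary (azurophil) granule genes Mpo, Elane, Prtn3 and Ctsg were followed across the genotypes and LDL treatments of a series on bone marrow-derived macrophages. The genes were chosen by symbol, and 4 of the 52595 genes listed in the 2 deposited count tables carry these names, each with 1 entry per table. Primary granules are the first granules a neutrophil makes, and their proteins are transcribed at the promyelocyte stage and stored for later release. Mpo encodes myeloperoxidase, which makes hypochlorous acid from hydrogen peroxide and chloride and is a peroxidase, not a protease. Elane (neutrophil elastase), Prtn3 (proteinase 3) and Ctsg (cathepsin G) encode serine proteases that the dipeptidyl peptidase Ctsc activates by removing a short propeptide. In the monocyte and macrophage line these transcripts belong to progenitors and early monocytes and are low in differentiated macrophages, so counts are given for each library.

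The study compared 4 genotypes, and all mice, the WT controls included, carried Vav-Cre, a Cre recombinase under a promoter active in blood-forming cells and their descendants. Dnmt3aKO mice had floxed Dnmt3a (Dnmt3a fl/fl), a de novo DNA methyltransferase. Tet2KO mice had floxed Tet2 (Tet2 fl/fl), an enzyme that oxidises methylated cytosine. Jak2VF mice had 1 activated and 1 normal allele of Jak2 (Jak2V617F/WT), a kinase of cytokine receptors. WT mice had none of these alleles. Marrow of mice aged 10 to 14 weeks was grown for 6 days with M-CSF at 10 ng/ml, a growth factor that drives marrow cells to macrophages, and the cells were rested for 24 h. They then received low-density lipoprotein (LDL, 200 mg/dL) or vehicle for 24 h. The main set had 24 libraries, with 8 groups of 3. A second set, called batch 1 in the labels, held 10 libraries of Tet2KO and WT, with 2 LDL and 3 vehicle libraries per genotype. No label ties libraries to separate animals, and p-values therefore measure only how far these libraries spread, which may be technical.

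Library totals were 24105237 to 43904761 counts (main set) and 15171143 to 44449473 counts (batch 1). Levels are given as CPM, counts per 1000000 counts of a scaled library total. A gene was tested where 3 libraries of the main set, or 2 of batch 1, reached 10 counts, and all 4 genes passed in both sets. In batch 1 Elane and Ctsg passed through the WT libraries alone. Dnmt3a lay at 27.6 to 36.6 CPM in Dnmt3aKO cells and 39.4 to 71.2 CPM in WT cells of the main set (log2 difference -0.83, edgeR adjusted p = 5.1e-06). In the main set Tet2 was not lower in Tet2KO cells (19.3 to 40.4 CPM) than in WT cells (15.0 to 32.2 CPM). In batch 1 it lay at 16.8 to 24.3 CPM in Tet2KO and 24.1 to 27.9 CPM in WT cells with vehicle. With LDL it lay there at 21.0 to 21.4 and 17.2 to 35.3 CPM, and the genotypes overlapped under both treatments. Since exons outside the floxed part are counted too, these levels do not test the label. The V617F change of Jak2 itself is not visible in gene counts. The Jak2 level was lower in Jak2VF than in WT cells of the main set (log2 difference -0.36, edgeR adjusted p = 0.014). With vehicle it lay at 54.6 to 68.2 CPM against 78.7 to 91.7 CPM in WT cells, and with LDL the groups overlapped. The summed level of 13 macrophage markers was 20440 to 37310 CPM in the main set and 26040 to 39330 CPM in batch 1. Brain transcripts summed to 171.1 CPM in the Tet2KO LDL library 3 and to 158.2 CPM in the WT LDL library 3, against 117.1 to 151.4 CPM in the other main libraries, and results that depend on these 2 libraries are named below. The batch 1 libraries had 156.9 to 194.1 CPM, so these 2 stand out only within the main set.

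Elane and Prtn3 are neighbours on mouse chromosome 10, and the other genes lie on chromosomes 11 and 14 (GRCm38, GENCODE gene models). Mpo (ENSMUSG00000009350) spans chr11:87793581-87804413 on the plus strand with 3424 exonic bases. Elane (ENSMUSG00000020125) spans chr10:79886247-79888215 on the plus strand with 984 exonic bases. Prtn3 (ENSMUSG00000057729) spans chr10:79874476-79883174 on the plus strand with 1732 exonic bases, and its end lies 3072 bases before the start of Elane. Ctsg (ENSMUSG00000040314) spans chr14:56099881-56102574 on the minus strand with 1033 exonic bases, among granzyme and mast cell protease genes. The exons of Prtn3 share 159 bases with the antisense gene Plppr3, and 7.48% of its 31-base words occur in that gene. Mpo shares 512 exonic bases with the antisense gene Gm11505, which had 0 to 1 counts in the main set, and 12.1% of its 31-base words occur in 195 other genes. Whether counting used the strand is not given in the sources used here, so part of the counts of Prtn3 and Mpo cannot be assigned with certainty. Elane and Ctsg shared no exonic base and no 31-base word with another gene.

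The 4 promoters are shown because the genes moved together across most groups, as the values further on show. Each window holds the 250 bases before the RefSeq start of the gene (RefSeq, GRCm38.p6), read 5′ to 3′ on the gene's strand. Windows lie at chr11:87793534-87793783 (plus) for Mpo, chr10:79886062-79886311 (plus) for Elane, chr10:79879417-79879666 (plus) for Prtn3 and chr14:56102575-56102824 (minus) for Ctsg. The windows of Mpo, Elane and Prtn3 lie wholly or partly inside the longer GENCODE spans. Capitals mark matches, on either strand, to 3 of the 4 motifs searched: GAGGAA (bound by PU.1 and other ETS factors), AACNG (MYB) and TGTGGT (RUNX).
Mpo: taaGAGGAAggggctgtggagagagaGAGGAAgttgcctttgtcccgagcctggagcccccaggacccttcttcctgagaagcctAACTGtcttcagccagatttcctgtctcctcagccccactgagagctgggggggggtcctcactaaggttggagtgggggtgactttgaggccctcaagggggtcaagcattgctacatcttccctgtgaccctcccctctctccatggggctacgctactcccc
Elane: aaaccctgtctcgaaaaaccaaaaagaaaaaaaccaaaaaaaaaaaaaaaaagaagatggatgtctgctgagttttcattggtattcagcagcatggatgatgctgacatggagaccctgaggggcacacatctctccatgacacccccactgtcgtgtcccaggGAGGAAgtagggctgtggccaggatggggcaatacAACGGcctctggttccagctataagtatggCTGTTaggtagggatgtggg
Prtn3: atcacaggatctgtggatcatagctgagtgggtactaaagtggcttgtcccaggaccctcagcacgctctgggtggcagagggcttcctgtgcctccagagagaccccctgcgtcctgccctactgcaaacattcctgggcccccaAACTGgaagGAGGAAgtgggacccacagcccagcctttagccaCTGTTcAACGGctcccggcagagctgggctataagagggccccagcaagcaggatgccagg
Ctsg: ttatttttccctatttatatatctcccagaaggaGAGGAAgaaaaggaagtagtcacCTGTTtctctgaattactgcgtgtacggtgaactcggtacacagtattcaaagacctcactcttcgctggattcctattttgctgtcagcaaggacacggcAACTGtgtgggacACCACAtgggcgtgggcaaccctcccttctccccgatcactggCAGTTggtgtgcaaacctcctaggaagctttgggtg
GAGGAA was present in 4 of the 4 windows, against 23.3% of 32851 promoter windows of the same length. It begins at -85 in Elane and at -95 in Prtn3, at -247 and -224 in Mpo, and at -216 in Ctsg, counted back from the start. AACNG was present in 4 of 4 windows and in 74.2% of all windows, so its presence separates few promoters. TGTGGT was present in Ctsg alone, on the opposite strand, and in 14% of all windows. The motif TTGCNNAA (C/EBP), was present in none of the 4 windows and in 9.56% of all windows. No 2 matches of different motifs overlapped. A match is a description of these letters and not a binding site, and the absence of a match covers this window alone.

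Mpo, the peroxidase gene, had 35, 58 and 66 counts with LDL and 323, 225 and 217 with vehicle in Dnmt3aKO cells. Jak2VF cells had 57, 66 and 53 counts with LDL and 206, 249 and 220 with vehicle. Tet2KO cells had 34, 32 and 25 counts with LDL, against 138, 96 and 113 with vehicle. The LDL libraries were the low ones in every mutant genotype, and no LDL library reached its vehicle group. WT cells had 38, 20 and 16 Mpo counts with LDL, against 61, 59 and 92 with vehicle, again without overlap. Relative to library totals Mpo averaged 1.67 ± 0.191 CPM with LDL and 6.34 ± 1.29 CPM with vehicle in Dnmt3aKO cells (SD, n = 3 each, as for all levels of the main set). The pair was 1.52 ± 0.0576 and 5.78 ± 0.997 CPM in Jak2VF cells, and 0.955 ± 0.0278 and 3.43 ± 0.464 CPM in Tet2KO cells. In WT cells it was 0.711 ± 0.301 CPM with LDL and 1.92 ± 0.431 CPM with vehicle. From high to low, Dnmt3aKO and Jak2VF vehicle cells came first and overlapped each other, then Tet2KO vehicle cells. WT vehicle cells followed and overlapped Dnmt3aKO cells given LDL, which in turn overlapped Jak2VF cells given LDL, and Tet2KO and WT cells given LDL were lowest and overlapped each other.

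Elane, the elastase gene, had 25, 63 and 53 counts with LDL, against 251, 154 and 157 with vehicle in Dnmt3aKO cells. Jak2VF cells had 31, 51 and 39 counts with LDL and 153, 143 and 110 with vehicle. The vehicle libraries of these genotypes had the highest Elane counts of all groups. Tet2KO cells had 11, 11 and 6 Elane counts with LDL, against 40, 29 and 38 with vehicle. WT cells had 15, 15 and 5 with LDL, against 40, 36 and 37 with vehicle. Tet2KO and WT cells overlapped under both treatments relative to library totals, and in all 4 genotypes the LDL libraries lay below the vehicle libraries. Elane averaged 1.45 ± 0.395 CPM with LDL and 4.65 ± 1.23 CPM with vehicle in Dnmt3aKO cells, and 1.04 ± 0.180 and 3.44 ± 0.424 CPM in Jak2VF cells. The averages were 0.289 ± 0.0524 and 1.05 ± 0.0875 CPM in Tet2KO cells and 0.332 ± 0.145 and 1.03 ± 0.0614 CPM in WT cells, LDL before vehicle in each pair. In the order of Elane levels Dnmt3aKO vehicle cells stood above Jak2VF vehicle cells without overlap. Below them Dnmt3aKO LDL, Tet2KO vehicle, Jak2VF LDL and WT vehicle cells each overlapped the next, and WT and Tet2KO cells given LDL were lowest.

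Prtn3, the gene of proteinase 3, had 57, 127 and 77 counts with LDL and 284, 315 and 300 with vehicle in Dnmt3aKO cells. Jak2VF cells had 65, 66 and 54 counts with LDL and 206, 202 and 124 with vehicle. Tet2KO cells had 79, 41 and 32 with LDL and 130, 61 and 93 with vehicle. Relative to library totals the LDL libraries of these 3 genotypes stayed below their vehicle libraries, by a narrow margin in Tet2KO cells, where the highest LDL library had 2.29 CPM and the lowest vehicle library 2.40 CPM. WT cells did not follow: they had 84, 45 and 50 Prtn3 counts with LDL and 70, 42 and 49 with vehicle, and the groups overlapped. Prtn3 averaged 2.74 ± 0.833 CPM with LDL and 7.49 ± 0.582 CPM with vehicle in Dnmt3aKO cells. It averaged 1.605 ± 0.152 and 4.49 ± 1.04 CPM in Jak2VF cells, and 1.56 ± 0.626 and 2.72 ± 0.549 CPM in Tet2KO cells. In WT cells the averages were 1.74 ± 0.556 CPM with LDL and 1.46 ± 0.393 CPM with vehicle. In the order of levels, Dnmt3aKO vehicle cells stood apart at the top, Jak2VF vehicle, Dnmt3aKO LDL and Tet2KO vehicle cells overlapped in turn, and the other 4 groups overlapped at the bottom.

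Ctsg, the gene of cathepsin G, had at most 86 counts in a library. Dnmt3aKO cells had 24, 26 and 21 counts with LDL and 83, 77 and 86 with vehicle, and Jak2VF cells had 26, 40 and 31 with LDL and 80, 78 and 64 with vehicle. Tet2KO cells had 16, 13 and 10 counts with LDL, against 31, 25 and 26 with vehicle. WT cells had 10, 12 and 4 counts with LDL and 14, 18 and 14 with vehicle. LDL and vehicle libraries did not overlap in CPM in any genotype, although the WT gap was narrow: 0.131 to 0.331 CPM with LDL and 0.367 to 0.509 CPM with vehicle. Ctsg averaged 0.782 ± 0.209 CPM with LDL and 2.05 ± 0.107 CPM with vehicle in Dnmt3aKO cells, and 0.835 ± 0.117 and 1.88 ± 0.183 CPM in Jak2VF cells. The averages were 0.407 ± 0.0487 and 0.821 ± 0.162 CPM in Tet2KO cells and 0.247 ± 0.103 and 0.419 ± 0.0778 CPM in WT cells. Dnmt3aKO and Jak2VF vehicle cells overlapped at the top of the order. Jak2VF LDL, Tet2KO vehicle and Dnmt3aKO LDL cells overlapped in the middle, WT vehicle and Tet2KO LDL cells overlapped next, and WT LDL cells stood lowest.

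**Figure D1:**
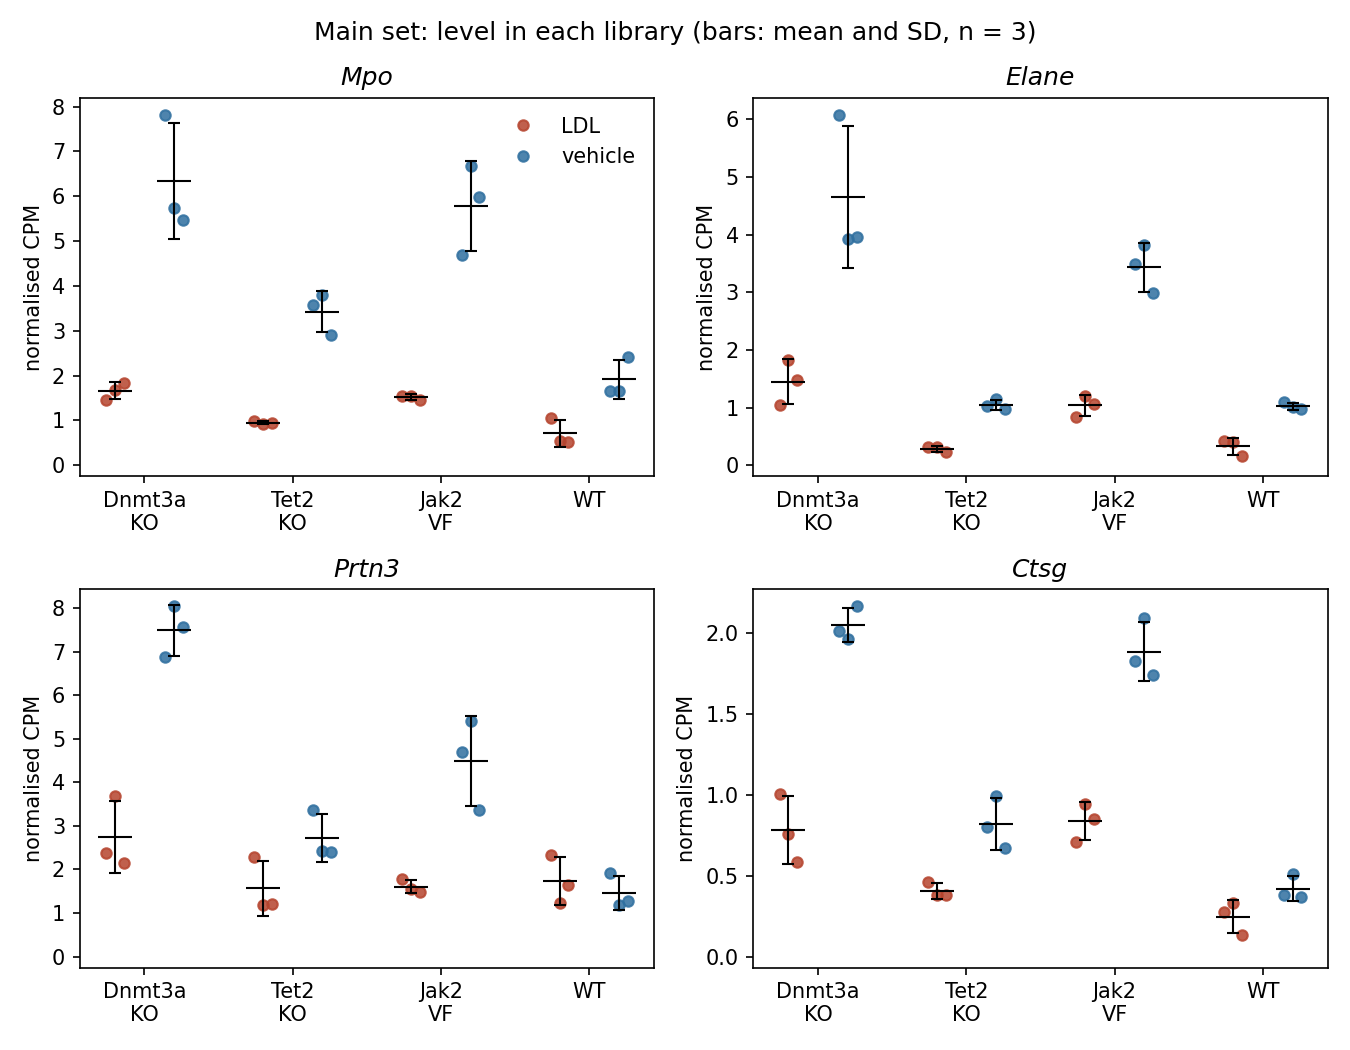
Level of Mpo, Elane, Prtn3 and Ctsg in each of the 24 libraries of the main set, in CPM on linear axes that differ between panels. Points are libraries, and bars are the mean and SD of the 3 libraries of a group, with LDL left of vehicle and WT last. Vehicle libraries of Dnmt3aKO and Jak2VF cells have the highest means in each panel, with Mpo at 6.34 and 5.78 CPM on average, and Prtn3 in WT cells is the one pair in which LDL does not lie lower.

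Between genes, levels were compared per kilobase of exon. In Dnmt3aKO vehicle cells Elane had 4.73 ± 1.25 CPM per kilobase and Prtn3 had 4.32 ± 0.336, and both stood above Ctsg (1.98 ± 0.103) and Mpo (1.85 ± 0.376). The same order of means held in WT vehicle cells for Elane (1.04 ± 0.0624) and Prtn3 (0.844 ± 0.227), followed by Mpo (0.559 ± 0.126) and Ctsg (0.406 ± 0.0754). In WT cells given LDL Prtn3 led with 1.00 ± 0.321 CPM per kilobase, against 0.337 ± 0.148 for Elane. Exon models of different completeness enter these values, and no test was run between genes.

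All 4 genes differed among the 8 groups (edgeR quasi-likelihood F test, adjusted p = 1.92e-10 for Mpo, 9.69e-11 for Elane, 2.73e-07 for Prtn3 and 3.04e-09 for Ctsg). Of all 19444 genes tested, 44.9% passed this test. In these bulk libraries fewer cells of a type and less RNA per cell cannot be told apart.

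LDL lowered all 4 genes on average over the genotypes, where 18.5% of the genes tested were called lower and 34.5% were called in either direction. Mpo fell 3.415-fold (log2 fold change -1.77 ± 0.11 (SE), edgeR adjusted p = 2.77e-11). Elane fell 3.245-fold (-1.70 ± 0.13, adjusted p = 9.29e-10). Ctsg fell 2.101-fold (-1.07 ± 0.12, adjusted p = 4.48e-07) and Prtn3 1.824-fold (-0.87 ± 0.14, adjusted p = 2.86e-05). The median of the 4 was -1.38, beside -0.00571 over all genes tested. Each of these falls was called when any 1 of the 24 libraries was left out, with Prtn3 ranging from -0.96 to -0.81.

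Within Dnmt3aKO cells all 4 genes fell with LDL, beside 8.96% of genes called lower there. The log2 changes were -1.92 ± 0.21 for Mpo (adjusted p = 7.33e-07), -1.66 ± 0.22 for Elane (1.05e-05), -1.44 ± 0.26 for Prtn3 (0.000332) and -1.41 ± 0.22 for Ctsg (6.46e-05). Their groups did not overlap for any of the 4, as was the case for 42.9% of all genes tested. In Jak2VF cells all 4 fell as well, beside 9.72% called lower, by -1.92 ± 0.21 (Mpo), -1.72 ± 0.23 (Elane), -1.48 ± 0.27 (Prtn3) and -1.17 ± 0.21 (Ctsg) on the log2 scale, with adjusted p-values of 8.44e-07, 1.16e-05, 0.000449 and 0.000448. No gene overlapped between these groups, against 32.4% of all genes. In Tet2KO cells 3 of 4 were called, beside 8.21% called lower: Mpo by -1.83 ± 0.23 (5.33e-06), Elane by -1.83 ± 0.31 (0.000201) and Ctsg by -0.98 ± 0.26 (0.011). Prtn3 in Tet2KO cells had -0.79 ± 0.28 (adjusted p = 0.0582), and no gene of the 4 overlapped, against 29.6% of all genes. Without the Tet2KO LDL library 1 the value for Prtn3 was -1.18 (0.0114), and DESeq2 called it on all libraries (0.0301), and without the Tet2KO vehicle library 2 that for Ctsg was -0.84 (0.0543). In WT cells 2 of 4 were called, beside 7.58% called lower: Mpo by -1.42 ± 0.24 (0.00023) and Elane by -1.59 ± 0.29 (0.000514). Ctsg in WT cells had -0.73 ± 0.30 (0.156) and Prtn3 had 0.25 ± 0.29 (0.62). In WT 3 of 4 genes did not overlap, against 24.8% of all genes, and Prtn3 was -0.02 without the WT LDL library 1.

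**Figure D2:**
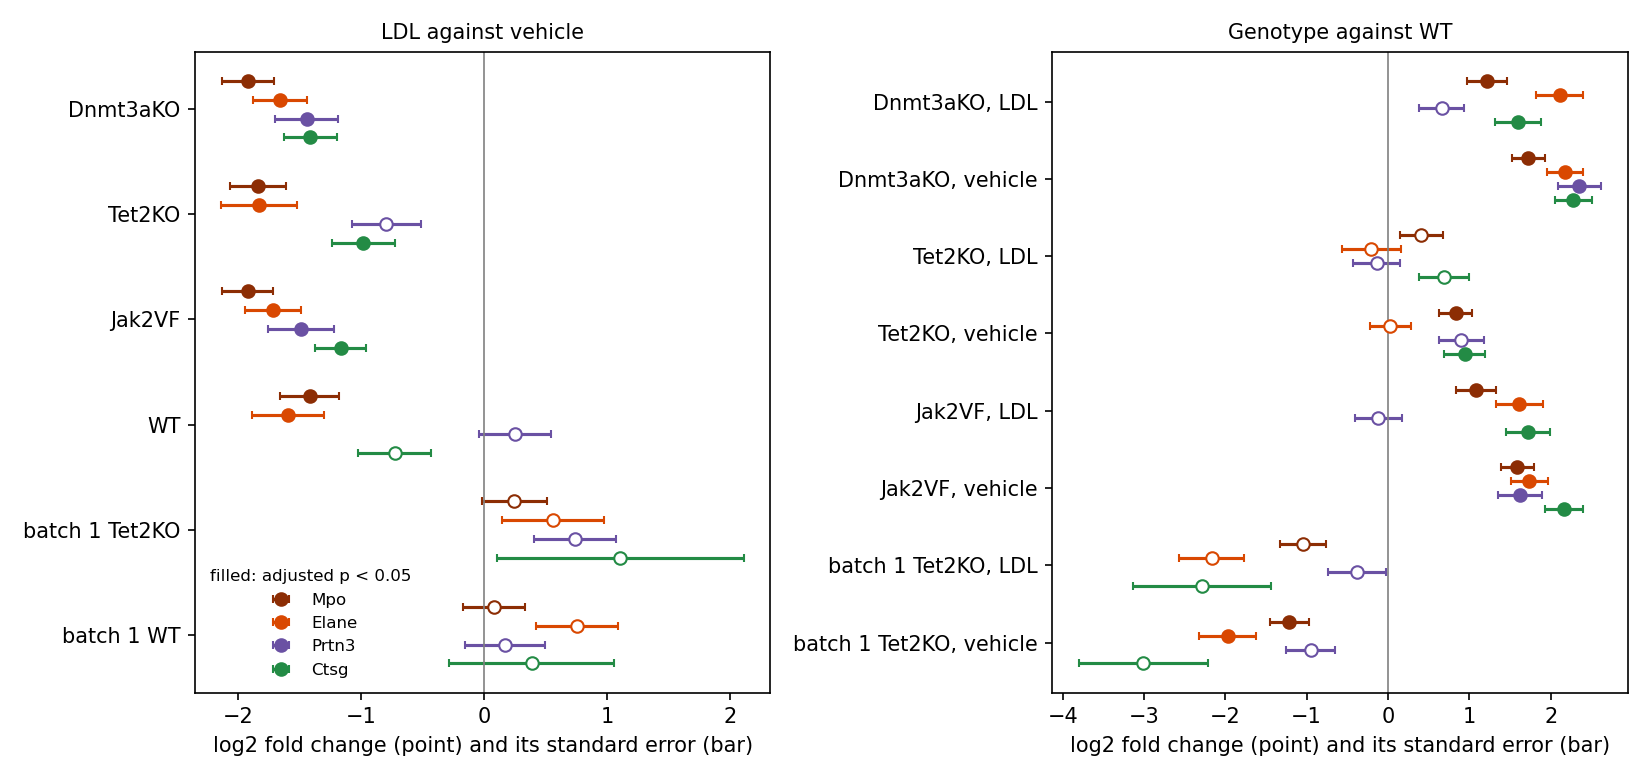
Log2 fold changes of Mpo, Elane, Prtn3 and Ctsg for LDL against vehicle in each genotype (left) and for the mutant genotypes against WT, treatments apart (right), with bars of 1 SE from the edgeR fit, in the main set and, at the bottom, in batch 1. Filled and open marks show calls and non-calls at an adjusted p under 0.05, and the line at 0 is no difference. The LDL values of the main set lie between -1.92 and -0.73 except for Prtn3 in WT cells at 0.25, the Dnmt3aKO values with vehicle lie between 1.72 and 2.35, and all Tet2KO values of batch 1 against WT lie below 0.

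Dnmt3aKO cells had more of all 4 transcripts than WT cells, averaged over both treatments, where 9.47% of genes tested were called higher and 21.2% in either direction. Elane was 4.421-fold higher (log2 2.14 ± 0.18, adjusted p = 1.64e-08) and Ctsg 3.833-fold (1.94 ± 0.18, 6.44e-08). Prtn3 was 2.844-fold higher (1.51 ± 0.19, 5.24e-06) and Mpo 2.775-fold (1.47 ± 0.16, 5.58e-07). With vehicle alone the differences were 5.114-fold for Prtn3, 4.86-fold for Ctsg, 4.524-fold for Elane and 3.303-fold for Mpo, with adjusted p-values of 2.96e-06, 6.36e-07, 9.21e-07 and 4.09e-06. All 4 were called there, beside 5.58% of genes called higher, and none of the 4 overlapped, against 31.6% of all genes. With LDL 3 of 4 were called, beside 8.01%: Elane (log2 2.11, adjusted p = 2.46e-05), Ctsg (1.60, 0.000423) and Mpo (1.22, 0.0017). Prtn3 with LDL had 0.66 (0.0994). These 3 called genes also had no overlap with LDL, against 34% of all genes, and Prtn3 did overlap.

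Jak2VF cells likewise had more of all 4 transcripts than WT cells, beside 5.64% of genes called higher and 12.9% in either direction. Ctsg was 3.84-fold higher (log2 1.94 ± 0.18, adjusted p = 2.43e-07), Elane 3.198-fold (1.68 ± 0.18, 2.26e-06), Mpo 2.524-fold (1.34 ± 0.16, 6.08e-06) and Prtn3 1.682-fold (0.75 ± 0.20, 0.0133). The difference for Prtn3 did not pass in an exact permutation test within treatments (p = 0.065). With vehicle all 4 were called, beside 4.29% called higher, at log2 differences of 2.16 for Ctsg, 1.74 for Elane, 1.62 for Prtn3 and 1.59 for Mpo. The adjusted p-values there were 4.23e-06, 4.46e-05, 0.000546 and 3.51e-05, and no gene overlapped, against 24.9% of all genes. With LDL 3 of 4 were called, beside 4.21%: Ctsg (1.72, 0.000427), Elane (1.62, 0.0015) and Mpo (1.08, 0.00873). Prtn3 with LDL had -0.12 (0.803) and was the one gene of the 4 that overlapped, where 25.4% of all genes did not. In a fit of the 2 groups compared alone none of these 3 calls with LDL was kept, with adjusted p-values of 0.0547 for Ctsg, 0.0672 for Elane and 0.103 for Mpo. Without both LDL libraries high in brain transcripts Mpo with LDL had 0.92 (0.0523).

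Tet2KO cells differed less from WT cells: 2 of 4 genes were called higher over both treatments, beside 3.86% of genes called higher and 7.76% in either direction. Ctsg had a log2 difference of 0.82 ± 0.20 (adjusted p = 0.0106) and Mpo of 0.62 ± 0.17 (0.0236). Prtn3 had 0.38 ± 0.20 (0.293) and Elane -0.09 ± 0.22 (0.838). The call for Mpo rested on single libraries. Its value ranged from 0.54 to 0.83, and the call was lost without Tet2KO vehicle 1 (0.60, adjusted p = 0.0502), Tet2KO vehicle 2 (0.58, 0.0588), WT vehicle 1 (0.58, 0.0583), WT vehicle 2 (0.58, 0.0562), WT LDL 2 (0.54, 0.0533) or WT LDL 3 (0.54, 0.0729). Without both libraries high in brain transcripts Mpo had 0.54 (0.11) and Ctsg 0.70 (0.0579). With vehicle alone Ctsg (0.95 ± 0.25, 0.0268) and Mpo (0.83 ± 0.21, 0.0183) were called, beside 2.76% of genes called higher, and Prtn3 (0.90 ± 0.28, 0.0646) and Elane (0.03 ± 0.25, 0.972) were not. Mpo, Prtn3 and Ctsg had no overlap with vehicle, against 27.2% of all genes. The vehicle call for Mpo was lost without Tet2KO vehicle 1 or 2 or WT vehicle 1 or 2 (adjusted p 0.068 to 0.097), and that for Ctsg without Tet2KO vehicle 1 or 2 or WT vehicle 1 or 3 (0.0721 to 0.137). Prtn3 was called without WT vehicle 1 (1.15, 0.0418) and by DESeq2 on all libraries (0.022). With LDL edgeR called 0 of 4 genes, beside 2.76% in either direction, and DESeq2, limma-voom and an unadjusted p under 0.05 gave 0 as well. The values were 0.69 for Ctsg (0.428), 0.41 for Mpo (0.575), -0.14 for Prtn3 (0.865) and -0.21 for Elane (0.845), and Ctsg was the one gene of the 4 without overlap, against 10.1% of all genes.

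The mutant genotypes differed among themselves in which genes were high. Tet2KO cells had less of all 4 transcripts than Dnmt3aKO cells over both treatments, beside 7.99% of genes called lower, and Elane had the largest difference of the 4 (log2 -2.23, adjusted p = 1.04e-08). Prtn3 had -1.13 (0.000155), Ctsg -1.12 (4.21e-05) and Mpo -0.85 (0.000347). Against Jak2VF cells 3 of 4 were lower in Tet2KO cells, beside 6.79% called lower: Elane (-1.77, 8.62e-07), Ctsg (-1.12, 5e-05) and Mpo (-0.71, 0.00246). Prtn3 had -0.37 (0.242), and -0.56 (0.0487) without the Tet2KO LDL library 1. Between Jak2VF and Dnmt3aKO cells no difference was called for Ctsg (0.00, adjusted p = 0.993) or Mpo (-0.14, 0.529). In that comparison 14.2% of genes were called lower, among them Prtn3 (-0.76 ± 0.18, 0.00345) and Elane (-0.47 ± 0.16, 0.0297). The call for Elane was lost without Dnmt3aKO vehicle 1 (adjusted p = 0.105), Dnmt3aKO LDL 2 (0.114), Dnmt3aKO LDL 3 (0.0549), Jak2VF vehicle 3 (0.057) or Jak2VF LDL 1 (0.081). The comparisons with WT share the WT libraries, and those among the mutants share each mutant's libraries.

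Of the 4 genes Prtn3 alone was called by edgeR for a difference in LDL effect between a mutant genotype and WT, in Jak2VF cells, and the same difference in Dnmt3aKO cells lay near the threshold. Prtn3 fell more in Jak2VF cells than in WT cells (difference of log2 changes -1.74 ± 0.39, adjusted p = 0.0269), where 0.962% of genes were called in this direction and 2.47% in either. This call was lost without any 1 of 7 of the 12 libraries compared. They were Jak2VF vehicle 1 (-1.72, 0.0664), Jak2VF vehicle 2 (-1.60, 0.0773), Jak2VF LDL 1 (-1.81, 0.0565), Jak2VF LDL 3 (-1.68, 0.0869), WT vehicle 2 (-1.62, 0.086), WT vehicle 3 (-1.65, 0.0925) and WT LDL 1 (-1.47, 0.106). It was also lost in a fit of the groups compared alone (-1.74, 0.0786). In Dnmt3aKO cells Prtn3 had a difference of similar size that missed the threshold (-1.69 ± 0.39, 0.0551), and edgeR called none of the 4 genes, beside 0.432% of all genes, with 1 at an unadjusted p under 0.05. Prtn3 was called there without Dnmt3aKO LDL 2 (0.0301), WT vehicle 1 (0.0356) or WT LDL 2 (0.0171), and by DESeq2 (0.0029), which called no other of the 4, and by limma-voom (0.05 after rounding). It was also called with unscaled library totals (0.0409), with no filter (0.000824), with the stricter filter (0.0465) and with the title replicate block (0.0246). In Tet2KO cells it had -1.04 ± 0.40 (0.494). There edgeR, DESeq2 and limma-voom each called 0 of 4 genes, beside 0.103% of all genes with edgeR, and 1 had an unadjusted p under 0.05. The differences for Mpo were -0.50 in Dnmt3aKO (0.46) and -0.50 in Jak2VF (0.304), and for Elane they were -0.07 (0.955) and -0.12 (0.859). Ctsg had -0.68 in Dnmt3aKO (0.404) and -0.44 in Jak2VF cells (0.458).

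Because Prtn3 and Elane lie side by side yet parted in WT cells, the ratio of their counts was taken in each library, a choice made after their values were seen. In Dnmt3aKO cells the ratio of Prtn3 to Elane was 2.25, 2.01 and 1.45 with LDL and 1.13, 2.04 and 1.91 with vehicle, and Jak2VF cells had 2.08, 1.29 and 1.38 with LDL and 1.35, 1.41 and 1.13 with vehicle. In these 2 genotypes LDL and vehicle libraries overlapped. Tet2KO cells had 6.91, 3.61 and 5 with LDL and 3.22, 2.08 and 2.43 with vehicle, and WT cells had 5.45, 2.94 and 9.18 with LDL and 1.74, 1.16 and 1.32 with vehicle. In Tet2KO and WT cells of the main set every LDL library stood above every vehicle library. Over the 4 genotypes of the main set the ratio was 1.79-fold higher with LDL (exact permutation test within genotypes on log2 ratios with a pseudocount of 0.5, two-sided p = 0.00109, 0.00652 adjusted over 6 ratio tests, 160000 arrangements). The pair was chosen from these same libraries, and the adjustment does not cover that choice. Every p-value of this ratio is therefore a description. For Jak2VF against WT the ratio was 0.522 times as high (exact permutation p = 0.035, adjusted 0.07), and for Dnmt3aKO and Tet2KO against WT the adjusted exact permutation p was 0.27 and 0.3. Plppr3, whose exons overlap those of Prtn3 on the other strand, lay at 3.36 to 12.4 CPM. It fell with LDL on average (log2 -0.89, edgeR adjusted p = 1.05e-10) and in WT cells (-0.47, 0.0103), and it was higher in Dnmt3aKO cells (0.54, 5.37e-05). The part of reads from Plppr3 in the Prtn3 counts was not tested. In batch 1 the ratio of Prtn3 to Elane did not rise with LDL (0.863 times, exact permutation p = 0.55, adjusted 0.55). For Tet2KO against WT in batch 1 it was 2.57-fold higher (exact permutation p = 0.0333, adjusted 0.07), where the smallest p this test can give is 0.0167. Elane had 3 to 8 counts in the Tet2KO libraries of batch 1. It passed the filter there only through WT libraries, so both batch 1 ratios are descriptions.

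**Figure D3:**
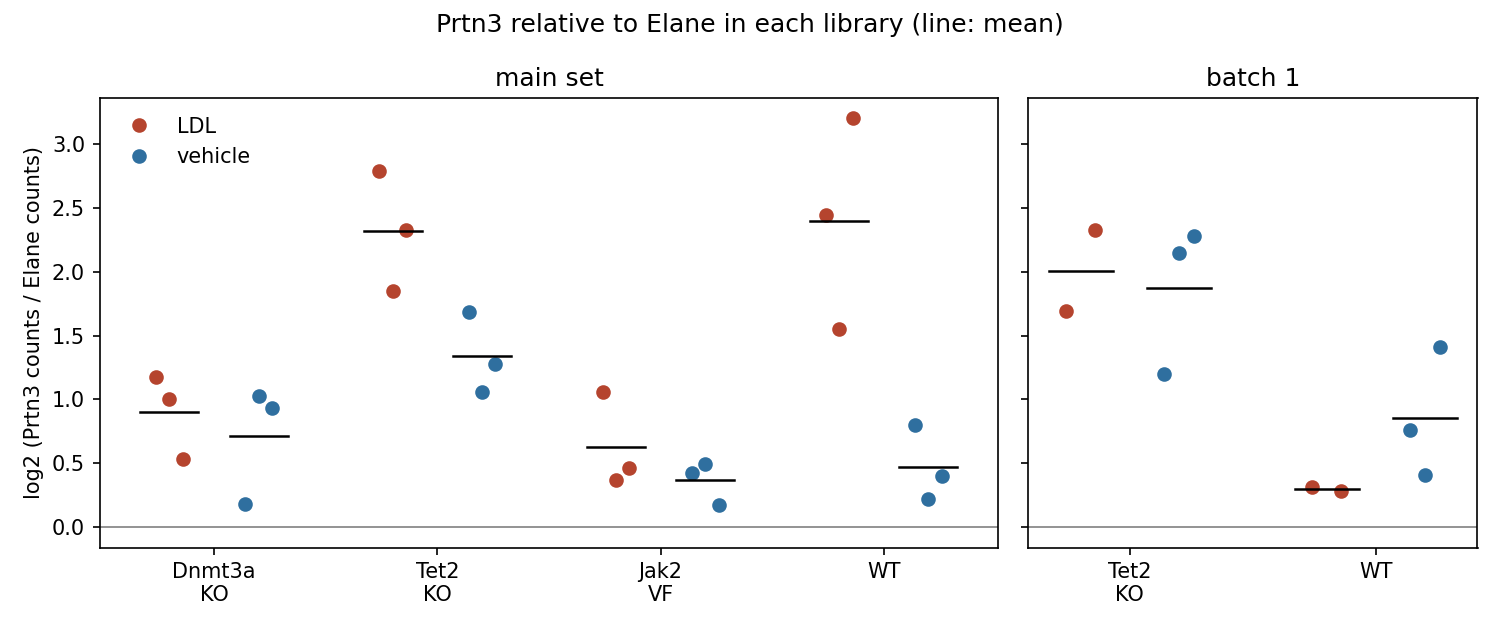
Ratio of Prtn3 to Elane counts in each library of both sets, as log2 values on the vertical axis, with LDL left of vehicle in each genotype. Points are libraries and lines are means of a group on the log2 scale. In the main set the geometric mean ratio is 1.547 with LDL and 1.288 with vehicle in Jak2VF cells, and 5.277 with LDL and 1.388 with vehicle in WT cells. In batch 1 it is 1.229 with LDL and 1.811 with vehicle in WT cells, and 4.022 and 3.665 in Tet2KO cells.

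Batch 1 held Tet2KO and WT libraries of the same design. Mpo had 49 and 36 counts with LDL and 38, 36 and 46 with vehicle in Tet2KO cells, against 37 and 193 with LDL and 56, 67 and 67 with vehicle in WT cells. Elane had 8 and 7 counts with LDL and 8, 3 and 6 with vehicle in Tet2KO cells, against 20 and 60 with LDL and 14, 18 and 14 with vehicle in WT cells. Relative to library totals the Tet2KO libraries were the low ones for both genes. Prtn3 had 27 and 37 counts with LDL and 19, 15 and 31 with vehicle in Tet2KO cells, against 25 and 73 with LDL and 24, 24 and 38 with vehicle in WT cells. Ctsg had 7 and 1 counts with LDL and 3, 0 and 3 with vehicle in Tet2KO cells, against 9 and 41 with LDL and 16, 7 and 11 with vehicle in WT cells. Ctsg was at or near the limit of counting in Tet2KO cells, where the count of 0 allows up to 3 counts in that library by counting error alone.

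Relative to library totals, Mpo and Prtn3 lay lower in Tet2KO cells than in WT cells of batch 1 under each treatment without overlap, where 21.8% of genes with vehicle and 35.6% with LDL had no overlap. Elane and Ctsg did so too, but no Tet2KO library of batch 1 reached 10 counts for either. They were tested only because of the WT libraries, where they were high, so their values and p-values against WT in batch 1 are descriptions. Mpo averaged 1.43 ± 0.123 CPM in Tet2KO and 3.32 ± 0.116 CPM in WT vehicle cells (SD, n = 3 each). Elane averaged 0.2002 ± 0.0829 and 0.806 ± 0.124 CPM, Prtn3 0.767 ± 0.255 and 1.49 ± 0.306 CPM, and Ctsg 0.0692 ± 0.0599 and 0.616 ± 0.323 CPM, Tet2KO before WT. Over both treatments Mpo was called lower (log2 -1.13 ± 0.18, edgeR adjusted p = 0.00991) and Prtn3 was not (-0.67 ± 0.24, 0.131), beside 2.81% of genes called lower and 5.34% in either direction. Elane had -2.07 ± 0.27 (0.00337) and Ctsg -2.65 ± 0.58 (0.0339). With 10 libraries these calls moved with single libraries. Mpo was not called without Tet2KO LDL 2 (-1.04, 0.0589). Ctsg was past the threshold with all libraries and not without Tet2KO LDL 2 (-2.27, 0.103), WT vehicle 1 (0.0834), WT vehicle 2 (0.0568), WT vehicle 3 (0.078), WT LDL 1 (0.0533) or WT LDL 2 (0.115). With vehicle alone Mpo was called (-1.21, 0.0364) and Prtn3 was not (-0.95, 0.203), beside 1.16% called lower. Elane had -1.97 (0.026) and Ctsg -3.01 (0.117, or 0.0321 by DESeq2). The call for Mpo was lost without any 1 of the 6 vehicle libraries (adjusted p 0.0758 to 0.142), and Elane was not past the threshold without any 1 of 5, all but Tet2KO vehicle 1 (0.0758 to 0.119). With LDL edgeR called 0 of 4, beside 0.536% of all genes, with 3 at an unadjusted p under 0.05, while DESeq2 called Elane (0.0259) and limma-voom called 0. The edgeR adjusted p-values were 0.053 for Elane, 0.191 for Mpo, 0.342 for Ctsg and 0.731 for Prtn3.

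LDL against vehicle in batch 1 gave no call for any of the 4 genes with edgeR, DESeq2 or limma-voom, where edgeR called 0.271% of all genes, and 1 of the 4 had an unadjusted p under 0.05. The log2 changes over both genotypes were 0.16 for Mpo (adjusted p = 0.878), 0.66 for Elane (0.413), 0.45 for Prtn3 (0.568) and 0.75 for Ctsg (0.793). In WT cells Elane was higher in both LDL libraries than in any vehicle library, at 1.36 ± 0.0218 CPM with LDL (n = 2) and 0.806 ± 0.124 CPM with vehicle (n = 3), the one gene of the 4 without overlap there, against 19.9% of all genes. Elane was also the one gene higher with LDL without overlap in Tet2KO cells, against 19.1% of all genes. It lay at 0.288 to 0.312 CPM with LDL and 0.115 to 0.281 CPM with vehicle. That gap was narrow and no library had more than 8 counts, so it is a description. Mpo had -0.05 without the WT LDL library 2, and Ctsg had -0.17 without the Tet2KO LDL library 1, so that their directions rest on those libraries. Other LDL-responsive genes differed between the sets too. Abcg1, a cholesterol exporter induced by sterols, lay at 159.6 to 242.1 CPM with LDL and 15.6 to 37.8 CPM with vehicle in the main set. In batch 1 it lay at 348.9 to 408.7 CPM with LDL and 261.3 to 314.7 CPM with vehicle in Tet2KO cells, and at 310.2 to 389 and 207 to 237.5 CPM in WT cells. Idi1, a cholesterol synthesis enzyme, lay at 13.5 to 18.5 CPM with LDL and 50.7 to 82.9 CPM with vehicle in the main set, and in batch 1 at 6.28 to 7.11 and 10.6 to 12.7 CPM in Tet2KO cells and 8.14 to 8.16 and 14.4 to 19.4 CPM in WT cells. The vehicle libraries of batch 1 were therefore nearer to their LDL libraries in both genes than those of the main set. The set and any other difference between the cultures cannot be told apart.

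A fit over all 34 libraries tested the difference between the sets for 19064 genes. The Tet2KO effect over both treatments was higher in the main set than in batch 1 for all 4 genes, beside 2.53% of genes called higher: by 1.74 ± 0.24 for Mpo (adjusted p = 3.98e-05), 1.96 ± 0.33 for Elane (0.000407), 1.03 ± 0.32 for Prtn3 (0.0333) and 3.47 ± 0.47 for Ctsg (2.75e-05) on the log2 scale. The value for Prtn3 ranged from 0.83 to 1.17 and was not called in 12 of 22 fits without 1 library each, with adjusted p-values up to 0.0893. With vehicle alone the differences were 2.01 ± 0.31 (Mpo, 0.000256), 1.98 ± 0.43 (Elane, 0.00757), 1.83 ± 0.43 (Prtn3, 0.0131) and 3.94 ± 0.65 (Ctsg, 0.000486), beside 1.31% called higher. Prtn3 was not called there without the batch 1 WT vehicle library 3 (1.64, 0.0551). The LDL effect over WT and Tet2KO was lower in the main set for Mpo (-1.83 ± 0.24, 1.58e-05) and Elane (-2.39 ± 0.34, 4.53e-05), beside 1.73% called lower. Prtn3 (-0.74 ± 0.31, 0.246) and Ctsg (-1.66 ± 0.51, 0.0655) were not called, and Ctsg was called without WT LDL 2 of the main set (-1.80, 0.0457), batch 1 Tet2KO LDL 2 (-2.05, 0.0148) or batch 1 WT vehicle 1 (-1.86, 0.0314). The Tet2KO difference from WT was thus positive in the main set and negative in batch 1 for Mpo. All values of Elane and Ctsg in this fit draw on batch 1 Tet2KO libraries, none of which reached 10 counts for either gene. They are therefore descriptions, as are the p-values beside them.

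**Figure D4:**
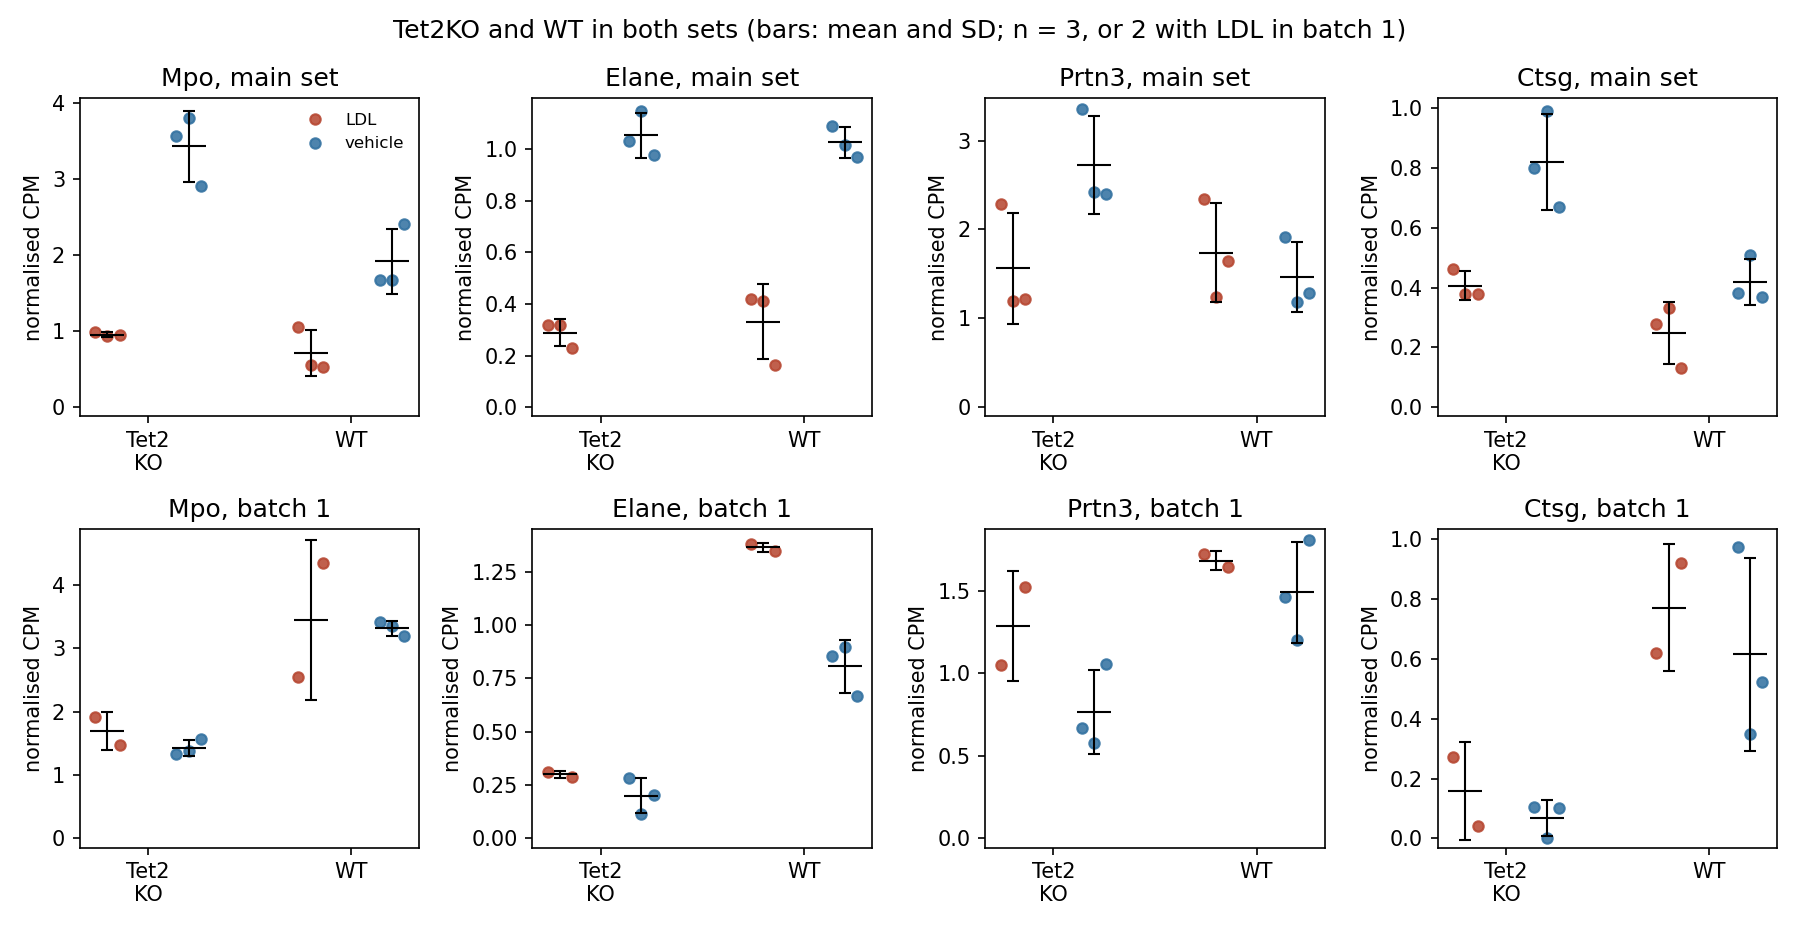
Level of Mpo, Elane, Prtn3 and Ctsg in Tet2KO and WT libraries of the main set and of batch 1, in CPM on linear axes that differ between panels. Points are libraries and bars are the mean and SD of a group, with Tet2KO left of WT and LDL left of vehicle. With vehicle Mpo averages 3.43 CPM in Tet2KO and 1.92 CPM in WT cells of the main set, and 1.43 and 3.32 CPM in batch 1.

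Other components of the primary granule moved in both directions. Of 13 genes, 10 were tested, and LDL raised 1 and lowered 6 of them (median log2 change -0.348, beside -0.00571 over all genes tested). Ctsc, which activates the serine proteases, fell with LDL (-0.87, edgeR adjusted p = 4.62e-14), as did the lysosomal mannosidase Man2b1 (-0.48), while the granule proteoglycan core Srgn rose (0.95). Ms4a3, a membrane protein of granulocyte and monocyte progenitors, followed the 4 genes: -1.36 with LDL (2.98e-05), 2.55 in Dnmt3aKO (1.23e-06) and 2.67 in Jak2VF cells (1.75e-06). Its counts were 9 to 33 with LDL and 57 to 96 with vehicle in Dnmt3aKO cells, 26 to 40 and 55 to 80 in Jak2VF cells, 1 to 6 and 10 to 14 in Tet2KO cells, and 1 to 7 and 6 to 14 in WT cells. In Dnmt3aKO cells Ms4a3 was one of 2 higher genes, and the count was 1 without any of 9 single libraries. Against WT the list had 2 higher and 2 lower genes in Dnmt3aKO (median 0.0109), 0 and 1 in Tet2KO (-0.1) and 1 and 4 in Jak2VF cells (-0.193), the last including Ctsc (-0.51). Over all genes tested 16% were called higher and 18.5% lower with LDL. Against WT 9.47% were higher and 11.7% lower in Dnmt3aKO cells, 3.86% and 3.9% in Tet2KO cells, and 5.64% and 7.27% in Jak2VF cells. The medians over all genes tested were -0.0166 in Dnmt3aKO, -0.00782 in Tet2KO and -0.00604 in Jak2VF cells, and these values stand beside every list median below. Some genes belong to more than 1 list.

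Genes of the later granules and of mature neutrophils were mostly higher in Dnmt3aKO and Jak2VF cells and mostly lower in Tet2KO cells. Of 14 genes of secondary and tertiary granules, 13 were higher and 0 lower in Dnmt3aKO (median 1.32), 8 and 0 in Jak2VF (0.912), and 1 higher and 9 lower in Tet2KO cells (-1.81). Ltf, the lactoferrin gene, had 1.28 in Dnmt3aKO, 1.13 in Jak2VF and -2.67 in Tet2KO cells (adjusted p = 4.89e-14 for the last). In Tet2KO cells Ngp (-2.85) and Chil3 (-2.28) were also lower. LDL raised 4 and lowered 8 of them (median -0.338), with Mmp8, a collagenase, up (1.83) and Ltf down (-0.87). Of 14 mature neutrophil markers, 12 were higher and 0 lower in Dnmt3aKO (1.59), 9 and 0 in Jak2VF (1.16) and 2 higher and 8 lower in Tet2KO cells (-1.36), with 5 higher and 4 lower with LDL (-0.0623, and 3 higher without the Tet2KO LDL library 1). Retnlg had 2.37 in Dnmt3aKO and -3.10 in Tet2KO cells, and S100a9, a calcium-binding alarmin, had 1.38 in Jak2VF and -2.43 in Tet2KO cells.

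The summed level of these 14 markers, all with counts in every group of the main set, was 1792 to 2033 CPM with LDL and 1505 to 1670 CPM with vehicle in Dnmt3aKO cells. It was 1265 to 1487 and 1078 to 1626 CPM in Jak2VF cells, 1356 to 2026 and 858.8 to 974.8 CPM in Tet2KO cells, and 1305 to 1811 and 758.7 to 1038 CPM in WT cells. The sum was higher with LDL without overlap in Dnmt3aKO, Tet2KO and WT cells and overlapped in Jak2VF cells. It weighs abundant markers most and does not stand for the list: by gene, 5 were higher and 4 lower with LDL (median -0.0623). In Tet2KO cells 8 of the 14 markers were lower than in WT cells, although the sums of these genotypes overlapped under both treatments. In CPM Mpo, Elane and Ctsg lay lower with LDL in all 4 genotypes of the main set, though edgeR did not call Ctsg in WT cells. The part of neutrophils in the LDL differences was not tested. With vehicle the sum was 1505 to 1670 CPM in Dnmt3aKO cells and overlapped that in Jak2VF cells, and the part of neutrophils in the genotype differences was not tested. In batch 1, 4 of 14 later granule genes were lower and 1 was higher in Tet2KO cells (median -0.682), and 2 of 10 tested neutrophil markers were lower and 0 higher (-0.594), beside 2.81% of genes called lower and 2.53% higher, namely Retnlg (-2.86) and Padi4 (-1.97). Without the batch 1 Tet2KO LDL library 2 these counts were 2 and 0, and without the WT LDL library 2 they were 2 and 1. Leaving out WT vehicle 1 or 3 left 1 neutrophil marker, and leaving out Tet2KO LDL 1 gave 4. Chil3 had -2.16 in Tet2KO cells of batch 1 (adjusted p = 0.00912). The batch 1 call of Retnlg (0.0339) was lost in 6 alternatives (-2.93 to -2.52, adjusted p 0.0511 to 0.133).

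**Figure D5:**
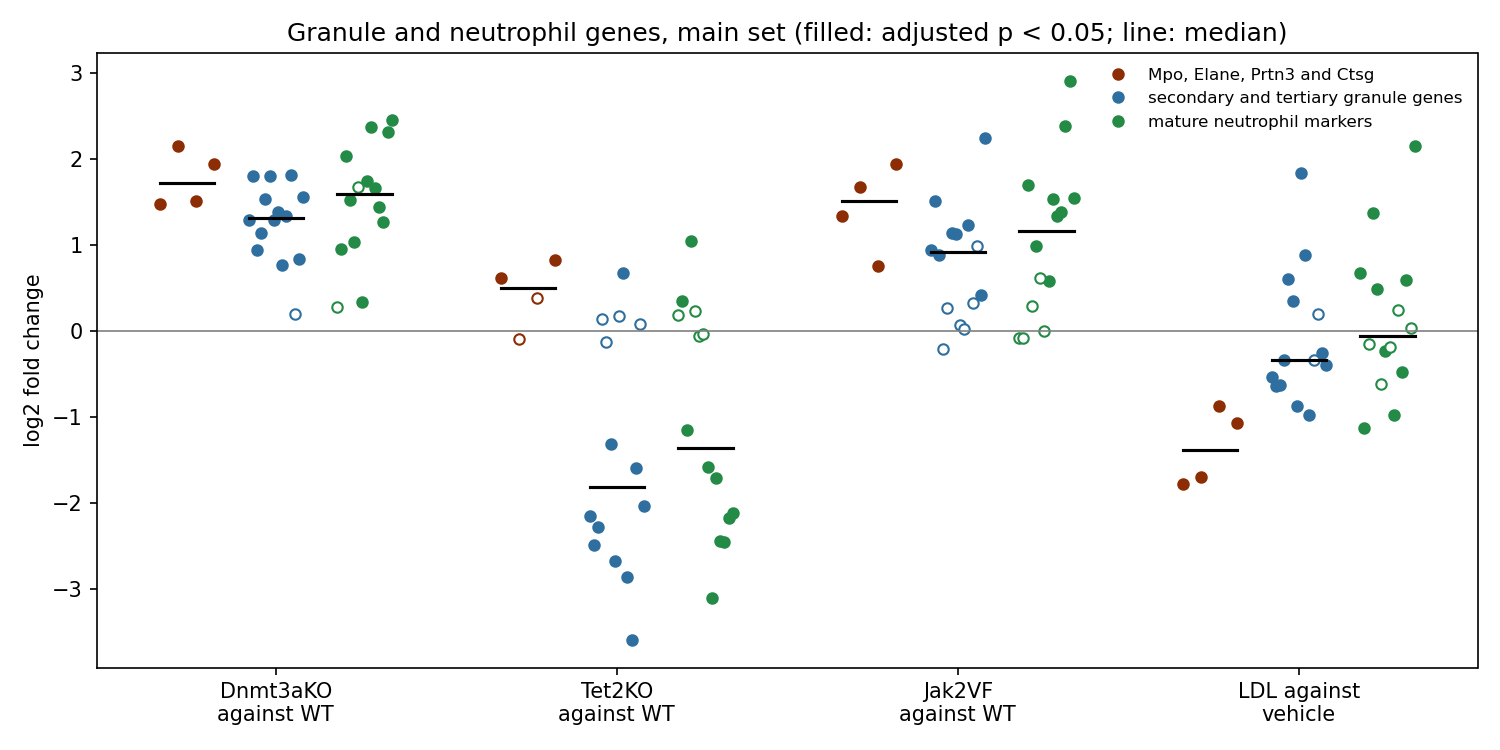
Log2 fold changes of Mpo, Elane, Prtn3 and Ctsg beside genes of the later granules and mature neutrophil markers, for each mutant genotype against WT over both treatments and for LDL against vehicle over the 4 genotypes of the main set. Points are genes, filled where the adjusted p is under 0.05, short lines are medians and the line at 0 is no difference. In Tet2KO cells the medians of the later granule genes and neutrophil markers are -1.81 and -1.36, while the 4 genes lie between -0.09 and 0.82.

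Promyelocyte and granulocyte-monocyte progenitor markers were mixed. Of 14 genes, 12 were tested, and LDL raised 4 and lowered 3 (median -0.172). In Dnmt3aKO cells 5 were higher (3 without the Dnmt3aKO LDL library 2) and 3 lower (0.0741), in Tet2KO cells 5 and 1 (0.296), and in Jak2VF cells 3 and 1 (0.0369). Kit and Flt3, growth factor receptors of progenitors, were higher in Tet2KO cells (1.04 and 1.14), and Cd34 (0.47) and Fcnb (1.51) in Jak2VF cells. The glutathione transferase genes Mgst2 (1.82) and Gstm1 (0.62) rose with LDL, opposite to the 4 granule genes. The summed level of the 14 genes was higher with LDL than with vehicle, without overlap, in Dnmt3aKO cells (1387 to 1443 against 1194 to 1248 CPM), Tet2KO cells (1502 to 1834 against 1195 to 1282 CPM) and WT cells (1594 to 2108 against 1334 to 1470 CPM). The groups overlapped in Jak2VF cells (1550 to 1799 against 1326 to 1622 CPM). This sum weighs abundant genes most and does not stand for the list, whose median log2 change with LDL was -0.172.

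Of 11 transcription factors known to act on granule genes, LDL raised 5 and lowered 2 (median 0.178). The first count was 3 without Dnmt3aKO vehicle 1, Dnmt3aKO LDL 2, Jak2VF vehicle 2, Jak2VF LDL 3, Tet2KO vehicle 3 or WT vehicle 2. Cebpb (1.00) and Klf4 (0.46) rose and Cebpa, which drives the step to granulocyte-monocyte progenitors, fell (-0.69). In Dnmt3aKO cells 3 were higher and 0 lower (0.241): Myb (1.12) and Gfi1 (1.06), both active at the promyelocyte stage, and Runx1 (0.31). In Tet2KO cells 2 were higher (1 without Tet2KO vehicle 2, Tet2KO LDL 2 or WT vehicle 1) and 2 lower (-0.0584), with Gfi1 up (1.07) and Cebpe, which is needed for secondary granules, down (-1.27). In Jak2VF cells 0 were higher and 2 lower (0.0318), namely Irf8 (-0.53) and Cebpa (-0.38), with Cebpa not called without Jak2VF vehicle 3, Jak2VF LDL 1, Jak2VF LDL 3, WT vehicle 1 or WT LDL 1 (-0.37 to -0.30). In batch 1 Cebpa was the 1 factor called of 11 (-0.65, adjusted p = 0.000626), lower in Tet2KO cells.

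Inhibitors of the serine proteases moved with LDL in both directions: of 9 tested among 12, 2 rose and 4 fell (median -0.0754). Slpi, a secreted inhibitor of elastase and cathepsin G, rose (2.84, adjusted p = 6.62e-15), and Serpinb1a, a cytosolic inhibitor of elastase, proteinase 3 and cathepsin G, fell (-1.44). Slpi was also higher in Dnmt3aKO (2.23, 3.5e-10) and lower in Tet2KO cells (-0.90). By count 2 inhibitors were higher and 3 lower in Dnmt3aKO (-0.0157), 1 and 3 in Tet2KO (-0.35) and 2 and 0 in Jak2VF cells (-0.000859). In batch 1 Slpi rose with LDL (2.07, adjusted p = 0.0233), as in the main set, a call lost without any 1 of 6 of the 10 libraries (all but the Tet2KO vehicle libraries and WT LDL 2, values 1.95 to 2.13).

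Receptors, partners and substrates of the enzymes were higher in Dnmt3aKO (9 higher and 2 lower of 13, median 0.949) and Jak2VF cells (7 and 1, 0.397). Cd177, which holds proteinase 3 on the neutrophil surface, had 1.79 in Dnmt3aKO, 1.51 in Jak2VF and -2.49 in Tet2KO cells, and Cxcr2, a chemokine receptor, had 2.04, 1.70 and -1.14. In Tet2KO cells 3 of the 13 were higher and 2 lower (0.224), and with LDL 4 rose and 2 fell (0.0885). Csf3r, the G-CSF receptor, fell with LDL (-1.13) and was higher in Dnmt3aKO cells (0.95). Of 9 oxidant partners of Mpo, LDL raised 6 and lowered 1 (0.371), among them Prdx6 (1.64) and Sod2 (0.97). In Dnmt3aKO cells 5 were higher and 0 lower (0.258), including Cybb (1.13), the oxidase subunit that supplies the substrate of Mpo after dismutation. In Tet2KO cells edgeR called 0 (0.0716), with 1 at an unadjusted p under 0.05, 1 called by DESeq2 and 0 by limma-voom, and in Jak2VF cells 0 were higher and 3 lower (-0.199).

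Markers of other cells were read beside the 4 genes. Of 13 macrophage markers LDL raised 3 and lowered 7 (median -0.301), and 2 were higher and 5 lower in Dnmt3aKO (-0.0805; 2 to 3 lower without Dnmt3aKO LDL 1, Dnmt3aKO LDL 3, WT vehicle 1 or WT LDL 1), 1 and 6 in Tet2KO (-0.208) and 0 and 11 in Jak2VF cells (-0.441), where Adgre1 had -0.65. Of 7 monocyte markers 6 were higher and 0 lower in Dnmt3aKO (0.73), 4 and 0 in Tet2KO (0.362), 4 and 3 in Jak2VF (0.51), and 2 rose and 4 fell with LDL (-0.617), among them Ccr2 (-1.38). Ly6c2, a marker of early monocytes, had 2.07 in Dnmt3aKO cells. Of 11 mast cell and basophil markers, 7 were tested, and 4 rose and 2 fell with LDL (0.257). Against WT 3 were higher and 3 lower in Dnmt3aKO (0.37), and 3 and 2 in Tet2KO cells (1.04). In Jak2VF cells 5 were higher (3 without Jak2VF vehicle 1 or 2) and 0 lower (1.57), with Prss34 at 5.77 and Ms4a2 at 4.67. Ms4a2 was at 0 in all WT libraries given LDL, and levels of Prss34 per library are not given here. Both values are therefore descriptions. The mast cell and basophil sum was 10.07 to 29.92 CPM, and Cma1, Tpsb2, Fcer1a or Ms4a2 was at 0 in some groups. The sum of eosinophil markers was 9.641 to 19.42 CPM, and Ear1 or Epx was at 0 in some groups. The part of these cells in the levels of the 4 genes was not tested.

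Across the 24 libraries of the main set the log2 CPM values of the 4 genes ran together, with Pearson's r between 0.822 (Mpo and Prtn3) and 0.925 (Elane and Ctsg). Once group means were removed r was between 0.0574 and 0.487, so most of the likeness was between groups. In the 10 libraries of batch 1 r was between 0.701 and 0.914. The genes share libraries, and these values are descriptions. Among all genes tested, those most like each member over the 24 libraries were named by r. Ms4a3 was most like Elane (0.945) and Ctsg (0.916). Aldh1a2, a retinaldehyde dehydrogenase, had 0.928 with Elane in the main set and -0.773 in batch 1. Nearest to Mpo were Abi3bp (0.91) and Angpt4 (0.908, and -0.477 in batch 1), and nearest to Prtn3 were Pi16 (0.891) and Gm9733 (0.881). Hspb7, a small heat shock protein gene, was among the 5 nearest of Mpo (0.88), Elane (0.884) and Prtn3 (0.86), and Gp1ba, a gene of the platelet line, had 0.877 with Ctsg.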

How the data were processed

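Gene-level RNA sequencing counts were analysed for 34 libraries of mouse bone marrow-derived macrophages, grouped by the genotype and treatment in their labels. The values are counts as the authors deposited them, 1 whole number per gene and library, and 0 columns were left out. The deposited names call them normalized, but totals differ between libraries and every value is whole, so they were tested as raw counts. The genome build was mm10, per the submitters' processing notes. The aligner, counting tool and use of strand were not given in the sources used here. Per the labels' protocols ribosomal RNA was depleted and polyadenylated RNA was selected, and which of these holds for a library is not clear.

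Counts were fitted with the edgeR quasi-likelihood test (edgeR 4.0.16, R 4.3.3) on TMM-scaled library sizes. Each group had its own mean, and all groups of a set shared the spread. Tests were two-sided, with Benjamini-Hochberg adjustment over all genes tested and calls at an adjusted p under 0.05. A gene was tested where 3 libraries (2 for batch 1) reached 10 counts: 19444 of 52550 in the main set, 15481 of 25498 in batch 1, and 19064 in a fit of both sets. Totals of 15171143 to 44449473 counts, and a common biological coefficient of variation of 0.137 in the main set and 0.199 in batch 1, limit the precision. The SE of a log2 fold change was derived from its F statistic. Ratios of Prtn3 to Elane were compared by exact permutation within strata. The fits were tested on simulated data.

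Alternatives were DESeq2 (1.42.0), limma-voom (limma 3.58.1), exact permutation of log2(CPM + 0.5), median-ratio scaling, unscaled totals, no filter or a filter at 20 counts, the groups compared alone, replicate blocks, and each library left out in turn. Samples with the same number in their titles deviated together (r 0.5 to 0.72 over 3 pairs) for Tet2KO against WT with LDL. In other comparisons r was lower or differed between pairs, as for LDL in WT cells of the main set (0.026 to 0.61).

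The 4 genes and the gene lists (other primary granule components, progenitor markers, transcription factors, inhibitors, receptors and partners, oxidant partners, later granule genes, and markers of neutrophils, macrophages, monocytes, mast cells and basophils, eosinophils and brain, and paralogues) were chosen with earlier results of these data known. From each list the rule allowed the called genes with the 3 smallest adjusted p in each averaged comparison, besides the 5 genes most alike and the 3 nearest genes on each side of a member. Some of the genes most alike are not reported here. Gene models are from the GENCODE annotation of GRCm38 and promoter windows from RefSeq on GRCm38.p6.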

Additional observations from a re-analysis of the deposited data

Results flagged for a closer look

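Prtn3 was marked because its LDL effect in Jak2VF cells differed from that in WT cells in a test of the difference itself (-1.74 ± 0.39 on the log2 scale, edgeR adjusted p = 0.0269). In Jak2VF cells Prtn3 averaged 1.605 ± 0.152 CPM with LDL and 4.49 ± 1.04 CPM with vehicle, and in WT cells 1.74 ± 0.556 CPM with LDL and 1.46 ± 0.393 CPM with vehicle (SD, n = 3 each). The call was lost in 7 of 12 fits without 1 library, with values from -1.99 to -1.47.

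The other marked results are differences between the main set and batch 1, each tested as such over 34 libraries. The Tet2KO effect over both treatments was higher in the main set by 1.74 for Mpo (adjusted p = 3.98e-05), 1.96 for Elane (0.000407), 1.03 for Prtn3 (0.0333) and 3.47 for Ctsg (2.75e-05) on the log2 scale. With vehicle alone the differences were 2.01 for Mpo (0.000256), 1.98 for Elane (0.00757), 1.83 for Prtn3 (0.0131) and 3.94 for Ctsg (0.000486). The LDL effect over WT and Tet2KO was lower in the main set, with differences of -1.83 for Mpo (1.58e-05) and -2.39 for Elane (4.53e-05). The values of Elane and Ctsg are descriptions, since no batch 1 Tet2KO library reached 10 counts for either gene. The set, its vehicle cultures and its sequencing cannot be told apart, and the cause was not tested.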

How the results depend on the processing

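For Mpo, Elane, Prtn3 and Ctsg in comparisons averaged over treatments or genotypes, 269 of 280 alternative fits kept the direction and the side of the threshold, 8 lost a call, 3 gained one and 0 changed direction. Calls lost were Ctsg in Tet2KO with no filter (0.80, adjusted p = 0.0524), with the groups compared alone (0.82, 0.0664) and without both brain-transcript libraries (0.70, 0.0579), Mpo in Tet2KO with the groups alone (0.63, 0.0838) and without both libraries (0.54, 0.11), Prtn3 between the sets in Tet2KO with limma-voom (1.04, 0.0526) and, by exact permutation, Prtn3 in Jak2VF (0.64, p = 0.065). Calls gained were Ctsg for LDL between the sets with DESeq2 (-1.67, 0.0248) and, by exact permutation in batch 1, Elane with LDL (0.36, p = 0.01) and Prtn3 in Tet2KO (-0.48, p = 0.0167). The permutation p-values are not adjusted over genes, so they are not like the adjusted p-values beside them. Those 2 batch 1 values are the smallest p these permutations can give. This tally and that of libraries left out include batch 1 values of Elane and Ctsg, which are descriptions.

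With the replicate block by title number no averaged call of the 4 genes changed. Under it, with vehicle in batch 1, adjusted p no longer passed for Mpo (-1.21, 0.0906) and Elane (-1.98, 0.0701), and Prtn3 was called with LDL in Tet2KO (-0.81, 0.0306), in Tet2KO with vehicle (0.90, 0.035) and in the Dnmt3aKO difference of LDL effects (-1.69, 0.0246). In these comparisons the likeness of same-numbered samples differed between pairs. For Tet2KO against WT with vehicle in batch 1 r was -0.15 to 0.37, and for LDL in WT cells of the main set it was 0.026 to 0.61. No label says what the numbers stand for. With the block by description number the call of Mpo in Tet2KO was lost (0.58, 0.0753). Direction changed for values near 0 that were not called: Ctsg in Jak2VF against Dnmt3aKO with the title block (-0.002311) and median-ratio scaling (-0.006201), and Elane in the LDL differences from WT, in Jak2VF with the description block (0.02153) and in Dnmt3aKO with limma-voom (0.02112).

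Leaving out 1 library kept 464 of 496 averaged results. Over libraries left out Mpo in Tet2KO ranged from 0.54 to 0.83, Elane in Tet2KO from -0.24 to 0.006498, and in batch 1 Tet2KO Mpo from -1.28 to -0.90 and Ctsg from -3.56 to -2.27. Between the sets Prtn3 in Tet2KO ranged from 0.83 to 1.17 and Ctsg for LDL from -2.05 to -0.70. For LDL in batch 1 Mpo ranged from -0.053 to 0.32 and Ctsg from -0.17 to 1.13, in WT Mpo from -0.37 to 0.39 and in Tet2KO Ctsg from -0.72 to 1.87. Other uncalled values that changed direction were Ctsg in Jak2VF against Dnmt3aKO (-0.087 to 0.10), Elane in Tet2KO with vehicle (-0.029 to 0.082), Prtn3 in Tet2KO (-0.53 to 0.14) and Jak2VF with LDL (-0.31 to 0.16), Prtn3 with LDL in WT (-0.023 to 0.49), and the LDL differences from WT of Elane in Dnmt3aKO (-0.36 to 0.18) and Jak2VF (-0.42 to 0.044) and of Ctsg in Tet2KO (-0.53 to 0.0078). The cause was not tested.

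Numbers of genes called were least stable for the LDL differences from WT (Jak2VF 480, range 22 to 3628; Dnmt3aKO 84, 41 to 731; Tet2KO 20, 0 to 154) and for batch 1 (Tet2KO 826, 280 to 1793; LDL 42, 0 to 438), and they also moved by over 1.5 times for Tet2KO with LDL (537, 39 to 840), Jak2VF with LDL (1938, 276 to 4487), Dnmt3aKO with LDL (3397, 1287 to 5658), Jak2VF with vehicle (1857, 769 to 2249), Tet2KO with vehicle (1064, 643 to 1388) and over both treatments (1509, 845 to 2054), and for LDL in WT (2770, 1291 to 3937), Tet2KO (3267, 1513 to 4087), Dnmt3aKO (2988, 2278 to 5596) and Jak2VF (3532, 2026 to 5035). In batch 1 this held for Tet2KO with vehicle (292, 70 to 685) and with LDL (83, 1 to 398), and for LDL in Tet2KO (0, 0 to 196) and WT (0, 0 to 74). Between the sets it held for Tet2KO over both treatments (2007, 977 to 2359) and with vehicle (685, 464 to 1126). Of 162 named results for other genes, 31 lost their call in at least 1 alternative and 0 changed direction. DESeq2 gave no adjusted p for 6 results. Genes with few counts, as Ctsg in batch 1, limit what could be called.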

Other observations

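The genome neighbours of the 4 genes were read in the same fits. Ctsg lies in a cluster of serine protease genes. Its nearest tested members are Mcpt8, a basophil protease, and the granzymes Gzme and Gzmd. They moved otherwise than Ctsg with LDL and in Dnmt3aKO cells, but in the same direction in Jak2VF cells. With LDL Mcpt8 (log2 1.12, edgeR adjusted p = 3.22e-06) and Gzme (0.82, 1.66e-05) rose, and Gzmd had 0.29 (0.167), while Ctsg fell. In Dnmt3aKO cells Mcpt8 (-0.83, 0.00812), Gzme (-1.37, 7.09e-06) and Gzmd (-2.27, 3e-07) were lower than in WT cells, while Ctsg was higher. In Jak2VF cells Mcpt8 (0.65, 0.038), Gzme (0.72, 0.00717) and Gzmd (1.11, 0.000628) were higher, as was Ctsg. The Jak2VF call of Mcpt8 was lost in 10 alternatives (0.52 to 0.66, adjusted p 0.0581 to 0.109). In Tet2KO cells the values were 0.02 for Mcpt8, 0.12 for Gzme and 0.47 for Gzmd, and none was called.

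Beside Elane, which shares its locus with Prtn3, the transcript Gm19810 begins 497 bases further on and had -0.08 with LDL (0.794) and 0.03 in Dnmt3aKO cells (0.949). Ptbp1, a splicing regulator upstream of Prtn3, had -0.06 (0.505) with LDL and -0.08 (0.496) in Dnmt3aKO cells. Med16, a Mediator subunit, was lower in Dnmt3aKO cells (-0.31, 0.0303). Of the neighbours of Mpo, Mir142hg, the host transcript of a blood cell microRNA, rose with LDL (0.32, 0.00233), and Tspoap1 had 0.10 (0.529). The eosinophil peroxidase gene Epx and the lactoperoxidase gene Lpo, relatives of Mpo on the same chromosome, had too few counts to be tested.

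Of 11 paralogues of the 4 genes 5 were tested in the main set. LDL raised 3 and lowered 0 (median log2 change 0.36), and against WT 0 were higher and 4 lower in Dnmt3aKO (-1.22), 1 and 1 in Tet2KO (0.227) and 2 and 0 in Jak2VF cells (0.114). In batch 1 Tet2KO cells 3 of 4 tested were higher and 0 lower (2.31), beside 2.53% of genes called higher. These calls were lost in 7 alternatives for Gzmb (adjusted p 0.0786 to 0.15), 8 for Gzmc (0.0574 to 0.19) and 4 for Mcpt8 (0.0639 to 0.0877).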
